A study of Mus musculus with 12 samples.

Results

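The genes described are the 78 mouse genes for mitochondrial ribosomal proteins, out of 24255 genes listed for both cell lines. A gene was taken when its Ensembl identifier maps to a protein-coding symbol beginning with Mrpl or Mrps and a digit, pseudogenes left out. By symbol, 49 belong to the large subunit (Mrpl) and 29 to the small subunit (Mrps). In the ribosome itself Mrps30 and Mrps18a are parts of the large subunit, where they are called mL65 and mL66. Mrps36 is now placed with the 2-oxoglutarate dehydrogenase complex and not with the ribosome. All 78 passed the filter on low values in both lines.

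RNA sequencing covered 12 libraries, 3 in each of 4 groups. AML12 is a mouse hepatocyte line, and iWAT carries the label of a mouse white adipocyte line. Confluent cells of either line given 50 µM diethyl phthalate (DEP), a plasticizer and solvent, for 48 h were compared with DMSO controls. DMSO is known from the sample titles alone, since the treatment label of the controls gives just the medium. No genetic change is named in any group. Nothing in the labels says that the 3 libraries of a group came from separate cultures, so the p-values speak for the spread among these libraries alone. In bulk RNA, fewer cells of a kind and less RNA per cell cannot be told apart.

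Totals were 42845105 to 46232482 reads in AML12 controls and 49249612 to 52915505 in AML12 with DEP. They were 50035049 to 54585090 reads in iWAT controls and 47735539 to 49059544 in iWAT with DEP, so depth was higher with DEP in AML12 and lower with it in iWAT. Of 10 hepatocyte markers, 6 were above the filter in AML12, of which 5 rose with DEP and Apoa1 fell. Their summed level went from between 519 and 530 FPKM in controls to between 584 and 597 FPKM. In iWAT the mature fat cell markers Adipoq, Plin1 and Cidec were near 0. The 7 adipocyte markers listed there summed to 19.9 to 21.2 FPKM in controls and 16.7 to 17.9 FPKM with DEP. Of these 7, 3 were above the filter, of which 1 fell with DEP and 2 did not pass. Of the leukocyte markers only Cd68, a lysosomal protein of macrophages and other cells, was above the filter. The summed leukocyte markers went from 10.7–12.04 to 4.38–4.79 FPKM in AML12 and from 10.7–12.1 to 13.3–13.9 FPKM in iWAT, while Ptprc, the common leukocyte antigen, was near 0 in AML12. Endothelial markers summed to under 1 FPKM in every group. The part of depth and of these markers in the results below was not tested.

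Mitochondrial ribosomes sit in the mitochondrial matrix and make the few proteins encoded by mitochondrial DNA, all of them core subunits of the respiratory chain and ATP synthase. Their ribosomal RNAs come from mitochondrial DNA, while every protein is encoded in the nucleus, made in the cytosol and imported. Some of the proteins have a counterpart in bacterial ribosomes, most of them named with u or b (uL18m, bS16m), and others are found in mitochondria alone, named with m (mL40, mS27). In mammals the transcription factors NRF1, GABP (an ETS family factor) and YY1 are known to bind promoters of many nuclear genes of mitochondria.

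Promoter windows from RefSeq (GRCm38.p6, 250 bases before to 50 after the gene's start) were found for 69 members. The letters CGCNTGCG (NRF1), CGGAAG (ETS factors), AAGATGGCG (YY1) and CACGTG (an E-box, bound by MYC and related factors) were searched on both strands. The ETS letters were present in 39 of 69 windows (56.5%), beside 23.5% of 17491 protein-coding genes. The NRF1 letters were in 20 (29.0%, beside 12.45%), the YY1 letters in 8 (11.6%, beside 2.14%) and the E-box in 5 (7.25%, beside 8.91%). At least 1 of the motifs was in 52 windows. The protein-coding genes were taken whether expressed or not, while all members passed the filter on low values. Among the 13 members called up, the 7 called down and the 49 not called in AML12, the ETS letters were in 5, 2 and 32. The NRF1 letters were in 5, 2 and 13, the YY1 letters in 3, 1 and 4 and the E-box in 1, 0 and 4. A link of motifs with the calls was not tested. A match is only a run of letters and no evidence of binding. The 4 windows below are those of the member highest in AML12 controls (Mrpl12), of the largest called rise and fall with DEP in AML12 (Mrpl18 and Mrps18a), and of a member whose start lies back to back with that of another member (Mrps11 with Mrpl46, 141 bases in common). They lie at chr11:120484387-120484686 (plus strand), chr17:12916042-12916341 (minus strand), chr17:46110754-46111053 (plus strand) and chr7:78782881-78783180 (plus strand), and each is written 5′ to 3′ on the gene's strand. Capitals mark the motif matches on either strand, so that CTTCCG is the ETS motif and CGCCATCTT the YY1 motif read from the other strand.
Mrpl12: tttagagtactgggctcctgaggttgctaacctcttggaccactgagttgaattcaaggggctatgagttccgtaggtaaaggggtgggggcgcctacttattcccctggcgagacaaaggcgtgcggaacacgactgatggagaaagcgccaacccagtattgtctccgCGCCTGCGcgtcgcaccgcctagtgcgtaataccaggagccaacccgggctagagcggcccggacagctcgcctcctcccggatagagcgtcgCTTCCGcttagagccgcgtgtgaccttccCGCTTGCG
Mrpl18: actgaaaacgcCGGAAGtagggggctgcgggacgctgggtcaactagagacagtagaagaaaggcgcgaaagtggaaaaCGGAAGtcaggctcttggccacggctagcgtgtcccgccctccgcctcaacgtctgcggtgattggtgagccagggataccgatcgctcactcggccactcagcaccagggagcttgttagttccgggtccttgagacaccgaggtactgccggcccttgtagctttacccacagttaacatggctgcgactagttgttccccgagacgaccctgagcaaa
Mrps18a: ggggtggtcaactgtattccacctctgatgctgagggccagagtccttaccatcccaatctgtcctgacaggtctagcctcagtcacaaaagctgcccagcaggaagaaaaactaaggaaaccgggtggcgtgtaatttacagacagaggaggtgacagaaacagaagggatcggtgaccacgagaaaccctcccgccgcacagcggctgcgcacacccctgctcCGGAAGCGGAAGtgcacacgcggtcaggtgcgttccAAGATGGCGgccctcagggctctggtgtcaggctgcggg
Mrps11: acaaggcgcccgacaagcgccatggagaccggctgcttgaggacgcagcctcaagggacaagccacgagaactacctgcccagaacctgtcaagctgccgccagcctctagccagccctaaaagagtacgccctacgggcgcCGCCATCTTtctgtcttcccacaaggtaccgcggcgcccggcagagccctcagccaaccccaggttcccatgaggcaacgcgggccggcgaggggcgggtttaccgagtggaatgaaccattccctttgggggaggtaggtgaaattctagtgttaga
Mrpl12 held the NRF1 letters at 2 places and the ETS letters, Mrpl18 the ETS letters at 2 places, Mrps18a the ETS letters at 2 adjoining places and the YY1 letters, and Mrps11 the YY1 letters, and no match overlaps another.

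In control cells the members spanned a wide range of levels, in FPKM (reads scaled by exon length and library total). In AML12 controls the highest was Mrpl12, a protein of the ribosome's stalk that also binds the mitochondrial RNA polymerase, at 91.8 ± 1.77 FPKM (SD, n = 3). Mrpl34 followed at 69.0 ± 1.91 FPKM and Mrpl28 at 43.9 ± 0.960 FPKM, the latter not separated from Mrps21 at 43.9 ± 2.25 and Mrpl38 at 43.8 ± 0.570 FPKM. The lowest were Mrps25 at 4.26 ± 0.315, Mrpl47 at 4.07 ± 0.182 and Mrpl48 at 3.32 ± 0.181 FPKM, and Mrps25 and Mrpl47 did not differ beyond their spread. In iWAT controls Mrpl28 was highest at 66.4 ± 1.10 FPKM, ahead of Mrpl53 at 51.7 ± 2.89 and Mrpl12 at 51.2 ± 2.51 FPKM, which did not differ beyond their spread. The lowest there were Mrps35 at 3.63 ± 0.0731, Mrpl23 at 3.46 ± 0.188 and Mrpl48 at 2.22 ± 0.125 FPKM, and Mrps35 was not separated from Mrpl17 at 3.64 ± 0.114 FPKM.

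The order of levels was alike in the lines, with a rank correlation of 0.843 over the 78 genes, which share library and length. The order also followed gene length, with rank correlations of FPKM with exon length of -0.745 in AML12 and -0.734 in iWAT. Exon lengths ran from 607 to 8631 bases with a median of 2394, against a median of 1302 bases for the principal transcripts. Set per principal transcript, Mrpl12 stayed first and Mrpl30 became second in AML12, and Mrpl13 came first in iWAT, so the order of genes depends on the length used. The tables of the lines were normalised separately, and their levels are set side by side without a test. The widest gaps were Mrpl17 (12.8 FPKM in AML12 and 3.64 in iWAT controls), Mrpl23 (11.6 and 3.46) and, the other way, Mrps22 (4.64 and 10.2) and Mrpl3 (6.502 and 14.01). In 37 genes every iWAT control lay above every AML12 control, and in 29 the reverse held. No such count was made over all genes, so these numbers do not set the members apart from other genes.

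**Figure D1:**
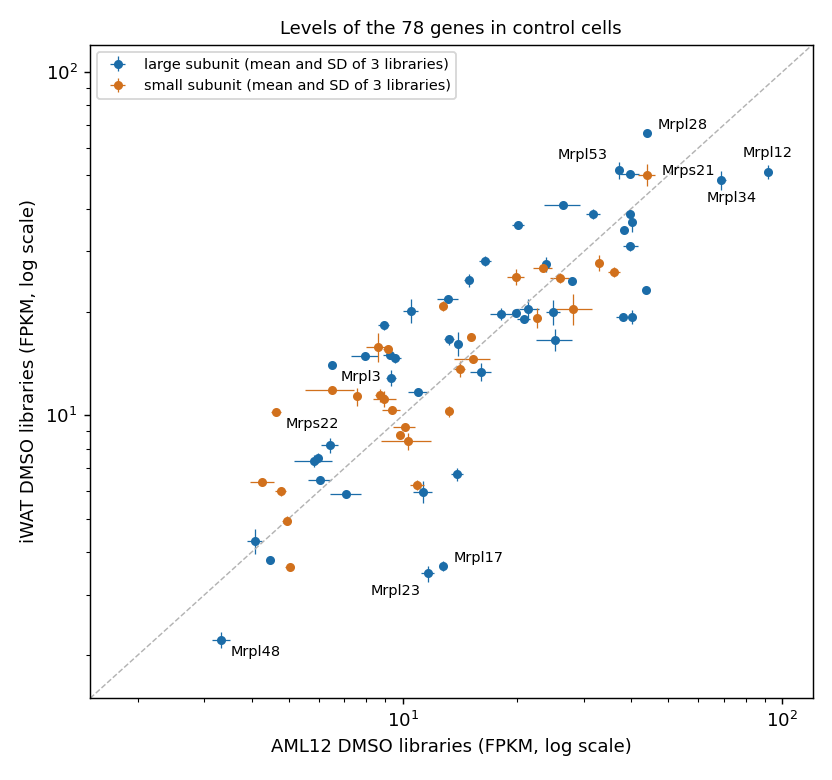
Mean level of each of the 78 genes in the 3 DMSO libraries of AML12 (x axis) and iWAT (y axis), in FPKM on log scales, with SD bars, blue for Mrpl and orange for Mrps genes. Points lie along the dashed line of equal level, with Mrpl17 and Mrpl23 to its right and Mrps22 and Mrpl3 above it.

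In AML12 cells with DEP the members moved in both directions and by little. Of the 78, 13 rose (16.7%), beside 23.9% of the 12929 genes tested, and 7 fell (8.97%), beside 15.3% of genes tested, by limma at a Benjamini-Hochberg adjusted p below 0.05. Both shares lay below those of all genes. Log2 fold changes, on the log2(FPKM + 1) scale here and below, ran from -0.20 to 0.30, and their median was 0.04, beside 0.03 over all genes tested. In 24 genes every DEP library lay above every control (beside 31.6% of all genes) and in 10 genes below (beside 20.4%). When each library was centred on its median, 9 members rose and 9 fell, and over all genes 2357 rose and 2545 fell in place of 3092 and 1982.

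**Figure D2:**
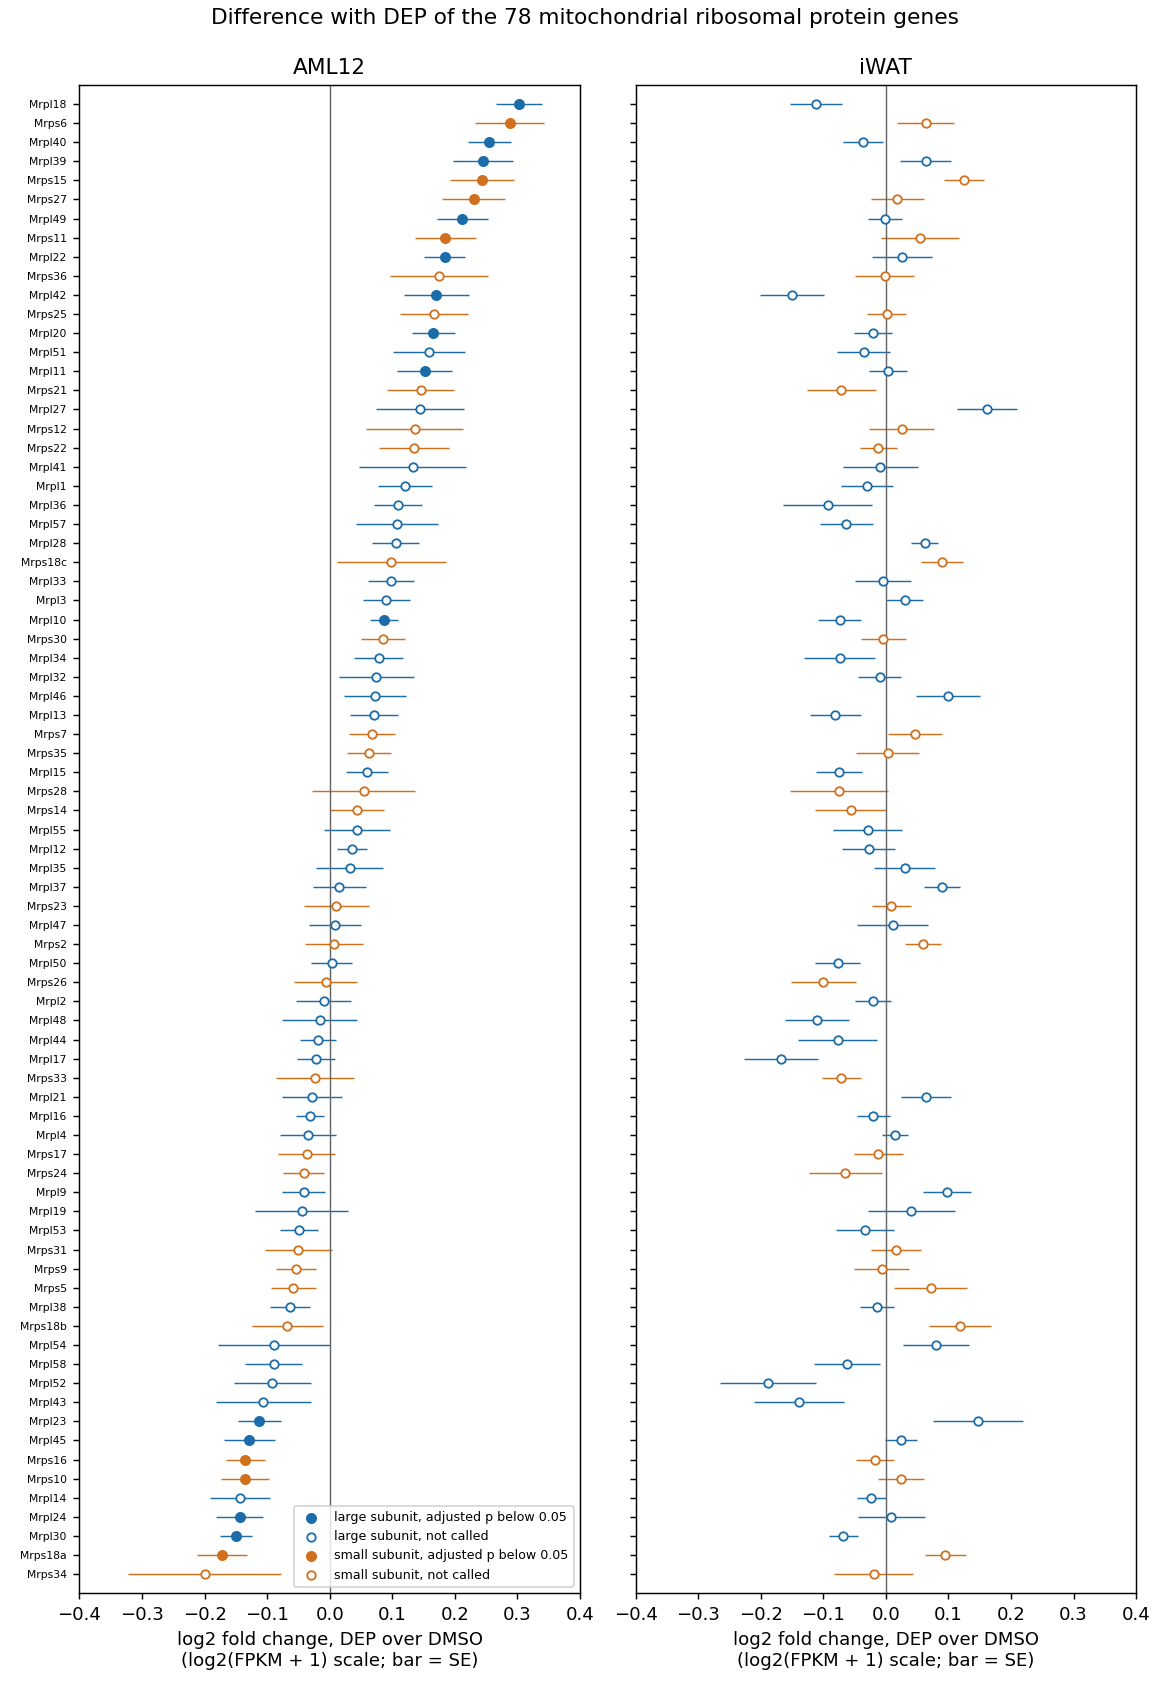
Log2 fold change with DEP of each of the 78 genes with its standard error, in AML12 (left) and iWAT (right), both in the order of the AML12 values. Filled points passed an adjusted p below 0.05, which 13 genes above 0 and 7 below 0 did in AML12 and none did in iWAT.

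The largest rise was in Mrpl18 (ENSMUSG00000057388), which encodes uL18m, the counterpart of a bacterial protein that binds 5S ribosomal RNA. It stood at 17.0, 16.6 and 15.8 FPKM in AML12 controls and at 19.8, 21.2 and 20.7 FPKM with DEP. All DEP libraries lay above all controls, with a log2 fold change of 0.30 ± 0.04 (SE; limma, adjusted p = 0.00103). Mrpl40, encoding the mitochondria-specific mL40, stood at 21.7, 20.1 and 20.5 FPKM in controls and at 25.6, 24.4 and 25.03 FPKM with DEP. Again the groups did not overlap, and the log2 fold change was 0.25 ± 0.03 (limma, adjusted p = 0.00158). Mrpl39, encoding mL39, a relative of threonyl-tRNA synthetase, went from 18.02, 17.1 and 19.5 FPKM to 21.99, 22.1 and 21.0 FPKM. Mrpl49, encoding mL49, went from 38.4, 42.2 and 38.1 FPKM to 46.6, 46.2 and 45.1 FPKM. Both rose without overlap of the groups, by 0.25 ± 0.05 and 0.21 ± 0.04 on the log2 scale (limma, adjusted p = 0.00733 and 0.00664).

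The other large subunit genes that rose were Mrpl22 (0.18), Mrpl42 (0.17), Mrpl20 (0.17), Mrpl11 (0.15) and Mrpl10 (0.09). Mrpl22, Mrpl20 and Mrpl10 lay outside the rule for named genes and were chosen after their values were seen. uL22m, from Mrpl22, lines the tunnel through which the new protein leaves the ribosome, and uL10m and uL11m, from Mrpl10 and Mrpl11, form the base of the stalk that translation factors touch. Mrpl12, which joins them at the stalk, stood at 89.8, 93.1 and 92.5 FPKM in controls and at 92.2, 96.1 and 94.1 FPKM with DEP. Its groups overlapped, and it did not pass (0.04 ± 0.02, adjusted p = 0.279). The calls of Mrpl42, Mrpl11 and Mrpl10 were lost under 9, 9 and 7 of 14 alternative settings. Mrpl11 lost its call without any 1 library other than control replicate 3 (adjusted p up to 0.0923). Mrpl42 lost it without control replicate 2 or 3 or DEP replicate 2 or 3 (adjusted p up to 0.113), and Mrpl10 without control replicate 3 or DEP replicate 2 (adjusted p up to 0.0672).

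Of the small subunit genes 4 rose. Mrps6, encoding bS6m, a protein of the small subunit's platform in bacteria, stood at 19.3, 19.2 and 21.0 FPKM in controls and at 25.9, 22.7 and 24.6 FPKM with DEP. The groups did not overlap (0.29 ± 0.06, limma adjusted p = 0.00656). Mrps15, encoding uS15m, which in bacteria binds 16S ribosomal RNA early in assembly, went from 24.1, 24.1 and 21.8 FPKM to 27.9, 29.2 and 26.3 FPKM (0.24 ± 0.05). Mrps27, encoding mS27, an RNA-binding protein with pentatricopeptide repeats, went from 8.72, 9.65 and 8.46 FPKM to 10.3, 10.7 and 10.99 FPKM (0.23 ± 0.05). Mrps11, whose promoter window overlaps that of Mrpl46, went from 8.17, 8.35 and 9.35 FPKM to 9.88, 9.79 and 10.1 FPKM (0.19 ± 0.05). The groups did not overlap in any of these genes, but without any 1 library other than control replicate 3 Mrps11 lost its call (adjusted p up to 0.0751).

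The largest fall among called members was in Mrps18a (ENSMUSG00000023967), which encodes mL66, a relative of bacterial bS18 that sits in the large subunit. It stood at 12.7, 12.6 and 12.9 FPKM in controls and at 11.1, 10.7 and 11.9 FPKM with DEP. The groups did not overlap, and the log2 fold change was -0.17 ± 0.04 (limma, adjusted p = 0.0148). Of its relatives, Mrps18b, encoding mS40, was at 14.7, 13.8 and 13.8 FPKM in controls and at 12.4, 14.6 and 13.4 FPKM with DEP, and Mrps18c, encoding bS18m, at 5.67, 7.55 and 6.25 FPKM and at 7.06, 6.74 and 7.13 FPKM. In both the groups overlapped (adjusted p = 0.385 and 0.412), and Mrps18c passed when control replicate 2 was left out (adjusted p = 0.0323).

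Of the other members that fell, 4 were Mrpl and 2 were Mrps genes. Mrpl24, encoding uL24m, which like uL23m lies at the exit of the tunnel, stood at 9.59, 9.33 and 9.03 FPKM in controls and at 7.98, 8.48 and 8.55 FPKM with DEP (-0.14 ± 0.04). Mrpl23, encoding uL23m, stood at 11.7, 12.1 and 11.2 FPKM in controls and at 10.8, 10.5 and 10.8 FPKM with DEP (-0.11 ± 0.03). Mrpl45, encoding mL45, which holds the ribosome at the inner membrane, stood at 41.0, 40.6 and 37.7 FPKM in controls and at 37.7, 36.2 and 34.9 FPKM with DEP (-0.13 ± 0.04). In Mrpl45 the lowest control and the highest DEP library nearly touched. Mrpl30 (uL30m) fell by 0.15 on the log2 scale, with 28.3, 28.1 and 27.2 FPKM in controls and 25.3, 25.3 and 24.5 FPKM with DEP. Mrps10 (uS10m) fell by 0.14 and Mrps16 (bS16m) by 0.13.

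Not all of these falls held when a library was left out. Mrps10 and Mrpl23 lost their calls without any 1 library other than control replicate 3 (adjusted p up to 0.0850 and 0.115). Mrpl24 lost its call without control replicate 1 or 2 or DEP replicate 1 (adjusted p up to 0.0693), and Mrpl45 without control replicate 1 or 2 or DEP replicate 2 or 3 (adjusted p up to 0.127). The number of members called down was 4 without control replicate 1, 3 without control replicate 2 and 4 without DEP replicate 3. In these fits 1666, 1624 and 1659 of all genes fell, in place of 1982. Over all 14 alternatives 12 of the 20 called members kept their call: Mrpl18, Mrpl20, Mrpl22, Mrpl39, Mrpl40, Mrpl49, Mrps6, Mrps15 and Mrps27, which rose, and Mrps18a, Mrpl30 and Mrps16, which fell.

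**Figure D3:**
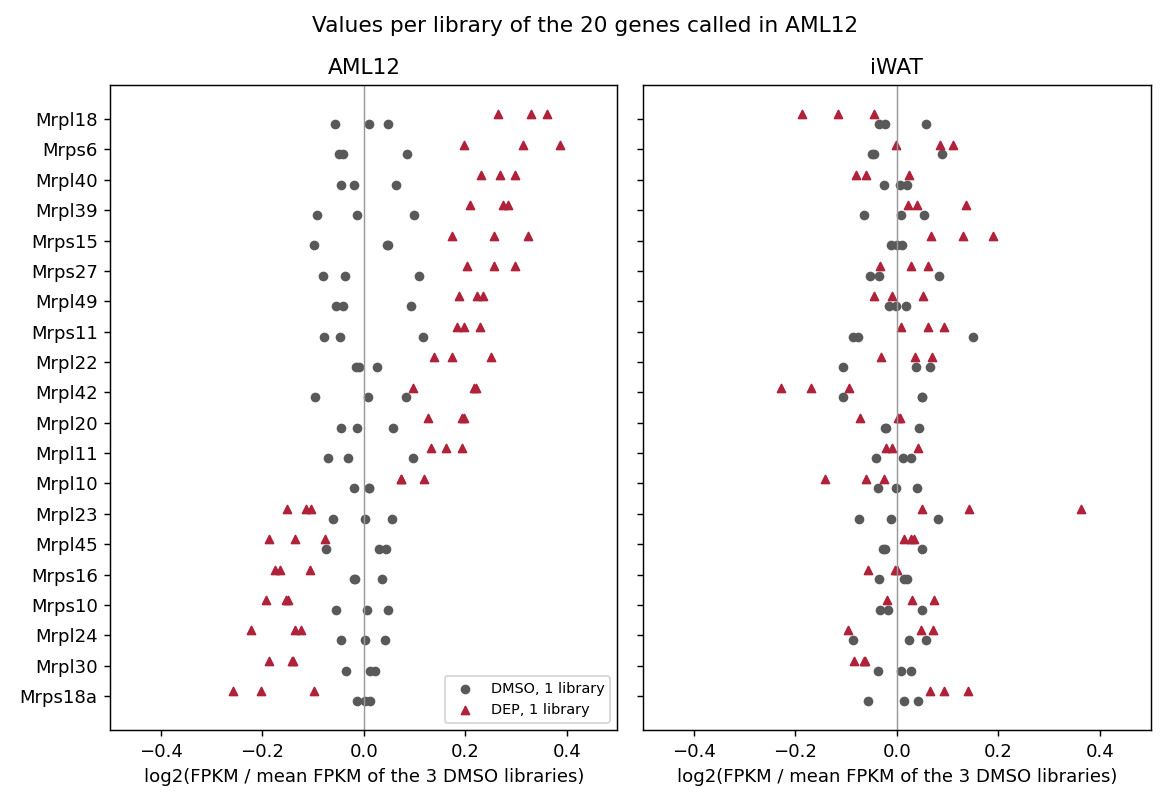
Each library's value of the 20 genes called in AML12, as log2 of its FPKM over the mean of the 3 DMSO libraries of the same line, with grey circles for DMSO and red triangles for DEP. In AML12 (left) circles and triangles do not overlap in any row, though in Mrpl45 the lowest circle and the highest triangle nearly touch. In iWAT (right) they are separate in Mrpl18, Mrps15, Mrpl30 and Mrps18a and mixed or touching in the others.

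Large and small subunit genes had medians close to each other in AML12. Of 49 Mrpl genes 9 rose and 4 fell, with a median log2 fold change of 0.036, and of 29 Mrps genes 4 rose and 3 fell, with a median of 0.044. The difference of these medians (large minus small) was -0.0080, less than its spread between libraries of a group (SD 0.0147). With Mrps18a and Mrps30 counted in the large subunit and Mrps36 left out, it was 0.0086. Leaving out 1 library at a time put it between -0.039, without DEP replicate 2, and 0.027, without DEP replicate 1. Of 48 proteins with a bacterial counterpart 8 genes rose and 6 fell, and of 29 mitochondria-specific ones 5 rose and 1 fell (Mrpl45). The former take in mL66 and mS40, from Mrps18a and Mrps18b, as relatives of bS18. By the letter of the name alone, 8 of 46 rose and 5 fell, and 5 of 31 rose and 2 fell (Mrpl45 and Mrps18a). Called either way were 26.5% of Mrpl and 24.1% of Mrps genes, beside 39.2% of all genes tested. By bacterial counterpart or not the shares were 29.2% and 20.7%, and by letter 28.3% and 22.6%, all below that of all genes. No test compared these classes.

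The summed level of all 78 genes was 1490, 1524 and 1491 FPKM in AML12 controls and 1596, 1551 and 1518 FPKM with DEP, so the highest control lay just above the lowest DEP library. Mrpl genes made 1070, 1091 and 1065 FPKM of it in controls and 1133, 1108 and 1083 FPKM with DEP, and Mrps genes 420, 433 and 426 FPKM and 463, 442 and 435 FPKM. DEP replicate 1 was the highest library in both. The median deviation of the 78 genes from their mean over the 6 libraries was 0.05 in DEP replicate 1 and between -0.02 and 0.01 in the other 5 libraries. Without DEP replicate 1 the median log2 fold change of members was 0.02 in place of 0.04.

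Several members with roles of their own did not pass in AML12. Mrpl58, encoding a peptidyl-tRNA hydrolase that frees stalled chains, was at 10.6, 11.8 and 11.5 FPKM in controls and at 10.5, 10.9 and 10.2 FPKM with DEP (-0.09 ± 0.05, adjusted p = 0.166), and passed without control replicate 1 (adjusted p = 0.0456). Mrpl44, a relative of ribonuclease III, had a log2 fold change of -0.02 ± 0.03 (adjusted p = 0.641). Mrpl3, encoding uL3m near the catalytic centre, stood at 0.09 ± 0.04 (adjusted p = 0.102), with every DEP library above every control. Mrps12, encoding uS12m of the decoding centre, was at 0.14 ± 0.08, Mrps22 at 0.13 ± 0.06, Mrps7 at 0.07 ± 0.04, Mrps30 at 0.09 ± 0.04 and Mrps36 at 0.17 ± 0.08, with adjusted p from 0.0977 to 0.216. Mrps12 and Mrps22 passed without DEP replicate 3 (adjusted p = 0.0271 and 0.0442). The lowest fold change of all, -0.20 ± 0.12 in Mrps34, did not pass either (adjusted p = 0.242): its controls stood at 8.58, 10.9 and 11.5 FPKM and its DEP libraries at 9.79, 9.22 and 7.54 FPKM. Mrps34, and Mrpl17 and Mrpl27 below, were chosen after their values were seen. In 69 of the 78 genes the 95% interval of the difference lay within a 1.25-fold change either way.

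In iWAT cells no member passed the test in either direction, by limma at an adjusted p below 0.05, beside 8.54% of the 13482 genes tested (4.03% up and 4.52% down). At an unadjusted p below 0.05 there were 13 of 78 genes (16.7%), beside 24.8% of all genes. With voom on recovered reads none rose, beside 7.82% of all genes in that fit, and 2 fell, beside 6.98%: Mrpl17 (-0.22, adjusted p = 0.0260) and Mrpl42 (-0.16, adjusted p = 0.0357). Log2 fold changes ran from -0.19 to 0.16 with a median of -0.01, beside 0.01 over all genes. In 7 genes every DEP library lay above every control (beside 17.2% of all genes), and in 6 below (beside 14%). The 95% interval lay within 1.25-fold either way in 77 of 78 genes.

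The member nearest to the threshold in iWAT was Mrps15, at 27.0, 26.7 and 26.9 FPKM in controls and at 30.6, 29.4 and 28.1 FPKM with DEP. The groups did not overlap (0.12 ± 0.03, limma adjusted p = 0.0595), and it passed when DEP replicate 3 was left out (adjusted p = 0.0376). Mrpl27, encoding bL27m near the catalytic centre, was at 21.9, 19.1 and 20.2 FPKM in controls and at 22.9, 23.2 and 22.6 FPKM with DEP (0.16 ± 0.05, adjusted p = 0.0891), and passed without control replicate 1 (adjusted p = 0.0290). Mrpl17, encoding bL17m, was at 3.61, 3.54 and 3.77 FPKM in controls and at 3.01, 3.47 and 2.93 FPKM with DEP, without overlap (-0.17 ± 0.06, adjusted p = 0.137). The medians were -0.02 for Mrpl and 0.00 for Mrps genes. The sum over all members was 1495, 1505 and 1532 FPKM in controls and 1537, 1497 and 1488 FPKM with DEP, and the groups overlapped.

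The difference between the lines was tested itself, as a line-by-treatment interaction in 1 limma fit of both lines, and is given as the AML12 minus the iWAT log2 fold change. It passed in 13 of 78 members (16.7%), beside 29.2% of 14651 genes: 8 positive, beside 17.6% of genes, and 5 negative, beside 11.7%. Mrpl18 had the widest gap, at 0.41 ± 0.06 (limma, adjusted p = 0.000422). In iWAT it stood at 27.7, 29.3 and 27.5 FPKM in controls and at 24.7, 27.3 and 26.01 FPKM with DEP. There every DEP library lay below every control, while in AML12 every one lay above, although the iWAT difference did not pass on its own (-0.11 ± 0.04, adjusted p = 0.154). Mrpl42 was at 13.9, 13.9 and 12.4 FPKM in iWAT controls and at 11.4, 11.9 and 12.5 FPKM with DEP, and its difference between the lines was 0.32 ± 0.08 (limma, adjusted p = 0.0111). Mrpl40, Mrpl49, Mrps27 and Mrpl20 followed with 0.29, 0.21, 0.21 and 0.19. Their iWAT log2 fold changes were -0.04, -0.0012, 0.02 and -0.02.

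The widest negative gap was in Mrps18a. In iWAT it stood at 21.4, 20.0 and 21.0 FPKM in controls and at 22.9, 21.8 and 22.2 FPKM with DEP. All DEP libraries lay above all controls there and below them in AML12, and the difference between the lines was -0.27 ± 0.05 (limma, adjusted p = 0.00355). Mrpl23 was at 3.29, 3.44 and 3.66 FPKM in iWAT controls and at 4.45, 3.82 and 3.59 FPKM with DEP, with overlapping groups and a difference between the lines of -0.26 ± 0.08 (adjusted p = 0.0362). At the threshold of 0.05 the difference passed under all 20 alternatives in Mrpl18, Mrpl40, Mrpl49, Mrpl20 and Mrps18a. It was lost under 1 of them in Mrpl42, with the replicate block (adjusted p = 0.0575), and in Mrpl10, scaled to the same upper quartile (adjusted p = 0.0542). In Mrps16, Mrps27, Mrpl15, Mrpl45, Mrpl23 and Mrps10 it was lost under 14, 13, 13, 11, 9 and 8 of them, among these 10, 8, 9, 9, 7 and 7 of the 12 fits that left out 1 library. Leaving out AML12 control replicate 2 or iWAT control replicate 2 left 8 members in place of 13. At an adjusted p below 0.01 the difference passed in 3 members, Mrpl18, Mrpl40 and Mrps18a. Mrps6, Mrps15, Mrpl39 and Mrpl22 rose in AML12 and had no called difference between the lines, so they are not shown to differ between them.

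**Figure D4:**
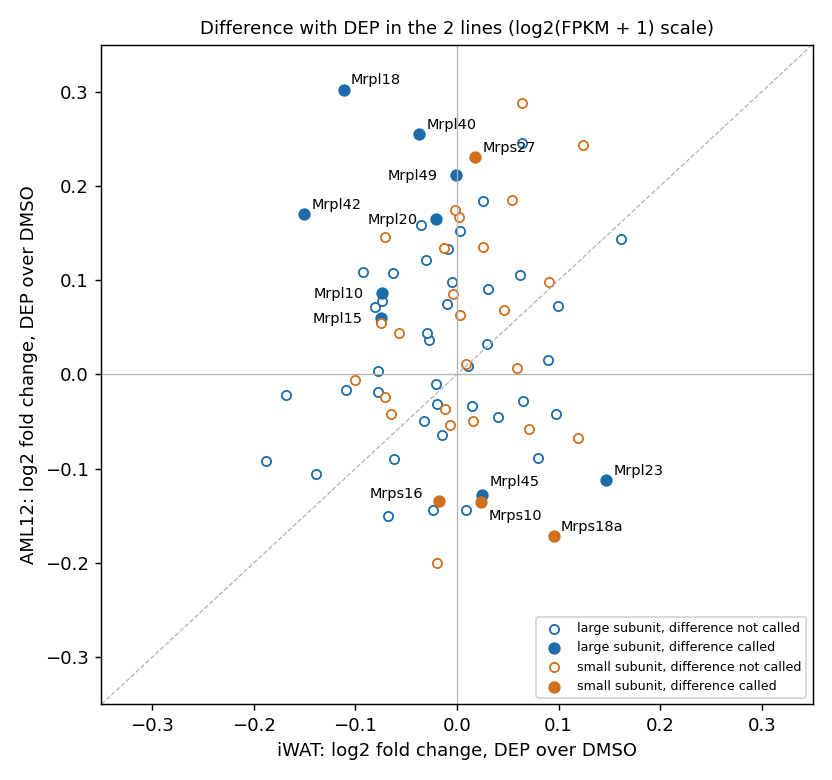
Log2 fold change with DEP in iWAT (x axis) and AML12 (y axis) of each of the 78 genes, both on the log2(FPKM + 1) scale, with a dashed line where both are equal. Filled, named points are the 13 whose difference between the lines passed an adjusted p below 0.05, with Mrpl18 at the top left (0.30 in AML12, -0.11 in iWAT) and Mrps18a at the bottom right (-0.17 and 0.10).

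Beyond the Mrpl and Mrps genes, 5 ribosomal proteins carry other symbols. Ptcd3, encoding mS39, a pentatricopeptide repeat protein at the entry of the messenger channel, rose in AML12 from 11.3 ± 0.218 to 13.8 ± 0.0406 FPKM (0.26 ± 0.03, limma adjusted p = 0.000420). In iWAT it fell from 17.3 ± 0.276 to 15.97 ± 0.167 FPKM (-0.10 ± 0.02, adjusted p = 0.0403), a call lost without any 1 of the 6 libraries (adjusted p up to 0.125). Dap3, Aurkaip1, Chchd1 and Gadd45gip1 passed in neither line. Of the 5 genes, 20% thus rose in AML12, beside 23.9% of all genes tested, and 20% fell in iWAT, beside 4.52%.

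Of 13 tested translation factors of mitochondria, 4 rose (30.8%) and 1 fell (7.69%) in AML12, beside 23.9% and 15.3% of all genes tested. The elongation factor gene Tufm went from 54.5 ± 1.04 to 60.4 ± 1.12 FPKM and Tsfm, its exchange factor, from 10.3 ± 0.623 to 12.1 ± 0.482 FPKM. Gfm1 rose by 0.12 and the release factor gene Mtrf1l by 0.37 on the log2 scale. Oxa1l, encoding the insertase that receives new chains at the inner membrane, fell from 21.3 ± 0.431 to 16.9 ± 0.387 FPKM (-0.32 ± 0.03, limma adjusted p = 0.000240). In iWAT Gfm1 rose (0.11 ± 0.02, adjusted p = 0.0288) and no other factor passed. That is 7.69% up and 0% down, beside 4.03% and 4.52% of all genes tested. The iWAT call of Gfm1 was lost without any 1 of the 6 libraries (adjusted p up to 0.0944), and its AML12 call without control replicate 1 or 3 or DEP replicate 2 or 3 (adjusted p up to 0.0624).

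Of 26 genes of ribosome assembly and rRNA modification 4 rose in AML12 (15.4%, beside 23.9% of all genes tested) and none fell (beside 15.3%). None passed in iWAT, beside 8.54% of all genes tested. Nsun4, a methyltransferase gene, went from 3.04 ± 0.0905 to 3.91 ± 0.0979 FPKM and Rcc1l, an assembly factor gene, from 6.35 ± 0.227 to 7.50 ± 0.169 FPKM, with Trub2 at 0.14 and Fastkd2 at 0.16 on the log2 scale. Of 20 mitochondrial aminoacyl-tRNA synthetases Cars2, Yars2 and Hars2 rose in AML12 (0.37, 0.26 and 0.13) and none passed in iWAT. That is 15% up and 0% down in AML12, beside 23.9% and 15.3% of all genes tested, and 0% in iWAT, beside 8.54%. Of 13 tested genes of mitochondrial transcription and its regulators, Pprc1, Tfam and Gabpa rose in AML12 and Esrra fell. That is 23.1% up and 7.69% down, beside 23.9% and 15.3% of all genes tested. Tfam, which packages mitochondrial DNA and takes part in its transcription, went from 9.80 ± 0.425 to 12.01 ± 0.450 FPKM. Gabpa, the subunit of GABP that binds the ETS letters, went from 12.2 ± 0.542 to 14.3 ± 0.551 FPKM. In iWAT Pprc1 (0.18) and Myc (0.14) rose, the latter not without any 1 of the 6 libraries (adjusted p up to 0.115). That is 15.4% up and 0% down in iWAT, beside 4.03% and 4.52% of all genes tested. Trub2 lost its call without control replicate 1 or DEP replicate 2 or 3 (adjusted p up to 0.0728), and Hars2 without control replicate 1 or 2 or DEP replicate 2 or 3 (adjusted p up to 0.131). Mtrf1l lost its call without control replicate 1 (adjusted p = 0.0524), and Fastkd2 without control replicate 1 or 2 or any of the DEP libraries (adjusted p up to 0.0973).

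Other families, drawn by symbol, are set beside the members here without a test. Of 77 cytosolic ribosomal protein genes 2 rose and 39 fell in AML12, with a median of -0.16. Of 76 nuclear genes of the respiratory chain 2 rose and 16 fell, with a median of -0.01. Falls made up 50.65% and 21.05% of these lists, beside 15.3% of all genes tested, and rises 2.60% and 2.63%, beside 23.9%. In iWAT no cytosolic ribosomal protein gene passed, beside 8.54% of all genes tested. There 7 of 77 respiratory chain genes fell (9.09%, beside 4.52% of all genes tested) and 0 rose (beside 4.03%). The ribosomal RNAs mt-Rnr1 and mt-Rnr2 stood at 267 ± 4.13 and 413 ± 5.21 FPKM in AML12 controls and at 371 ± 3.44 and 648 ± 14.8 FPKM with DEP. Both rose. In iWAT mt-Rnr2 rose from 364 ± 5.47 to 402 ± 2.46 FPKM (0.14 ± 0.02, limma adjusted p = 0.00518), while mt-Rnr1 did not pass (161 ± 6.67 and 151 ± 7.68 FPKM, -0.09 ± 0.04). That is 50% up, beside 4.03% of all genes tested. Of 13 messenger RNAs of mitochondrial DNA, mt-Nd1 rose in AML12 (0.39) and mt-Nd5, mt-Nd6 and mt-Co1 fell (-0.45, -0.48 and -0.32). That is 7.69% up and 23.1% down, beside 23.9% and 15.3% of all genes tested. In iWAT mt-Nd6 fell (-0.13), which is 7.69% down, beside 4.52% of all genes tested. The iWAT call of mt-Nd6 was lost without any 1 library other than DEP replicate 1 (adjusted p up to 0.134). The strand of mt-Nd6 is the opposite of that of mt-Nd5. The call of mt-Co1 was lost with no filter on low values (adjusted p = 0.491).

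**Figure D5:**
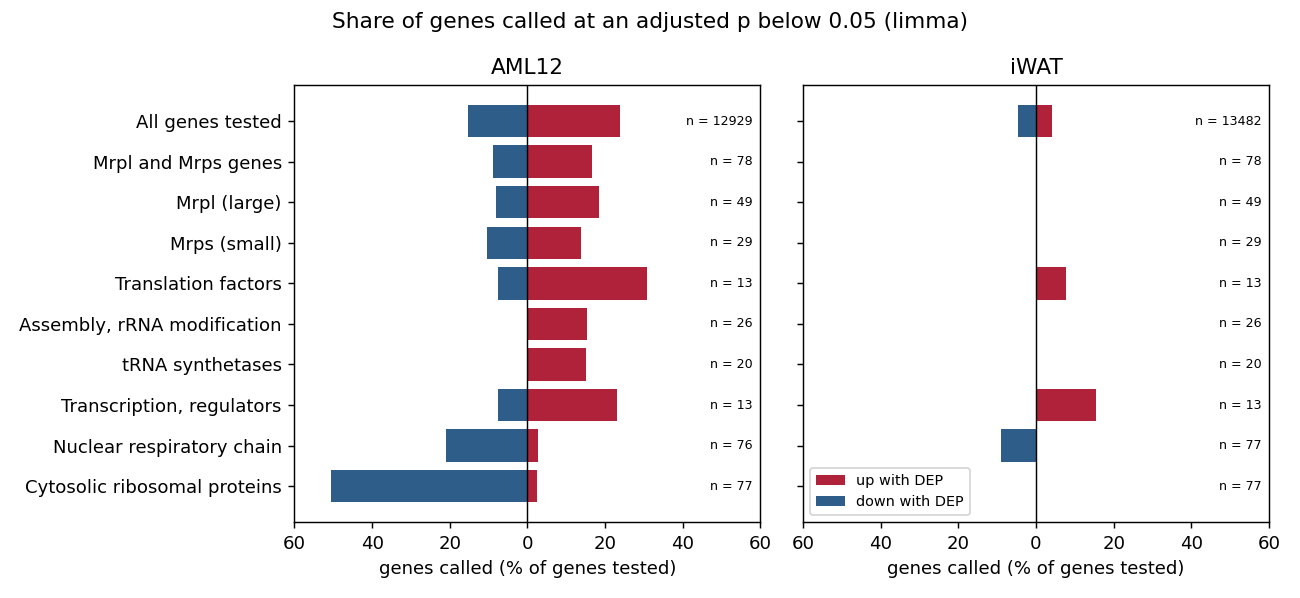
Percent of the tested genes of each group called up (red, to the right) and down (blue, to the left) at an adjusted p below 0.05 by limma, in AML12 (left) and iWAT (right), with the number tested. Mrpl and Mrps genes show both directions in AML12 and no bar in iWAT, while cytosolic ribosomal proteins show mostly falls in AML12.

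In 24 members the promoter window overlaps that of a gene on the other strand, by 63 bases (Mrpl48) to 296 bases (Mrpl32). In AML12 Mrpl18 and its neighbour Tcp1, a subunit of the cytosolic chaperonin with which it has 263 bases in common, both rose, Tcp1 from 87.1 to 94.0 FPKM (0.11 ± 0.03, limma adjusted p = 0.0144). The neighbours Hira of Mrpl40, Ptcd2 of Mrps27 and Mrpl46 of Mrps11 did not pass, with log2 fold changes of 0.12, 0.15 and 0.07. Fau, the neighbour of Mrpl49, did not pass either and had the opposite sign (588 to 521 FPKM, -0.18 ± 0.09), while Mrpl49 rose by 0.21. Mitd1, the neighbour of Mrpl30, was at 0.13 in AML12 (not called) and fell by 0.22 in iWAT (adjusted p = 0.0267). Beside members not called in AML12, 5 tested neighbours rose, 2 fell and 8 did not pass, where 23.9% of all genes tested rose and 15.3% fell. Among them were Eme1 of Mrpl27 (0.54), Ska3 of Mrpl57 (0.39) and Tmem63b of Mrpl14 (-0.21). In iWAT 2 neighbours rose, 1 fell and 21 did not pass, beside 4.03% and 4.52% of all genes tested. In 18 members over 10% of exon bases are shared with another annotated gene, and 5 of them were called in AML12: Mrpl18, with 10.1% of its bases opposite Tcp1, Mrps6, with 19.9% shared on the same strand, and Mrpl10, Mrpl24 and Mrps27. The widest overlaps were in members not called. Mrpl53 shares 87.97% of its exon bases on the same strand, Mrps25 69.8% on the opposite strand, and Mrps34 36.97% on the same and 63.42% on the opposite strand. The control levels of Mrpl53 and Mrps25 and the fold change of Mrps34 given above take in such bases. The libraries were stranded, but whether the counting used strand is not given in the sources used here, so reads of such overlaps are uncertain. Pseudogenes add to this: Mrpl48-ps stood at 13.9, 16.5 and 15.7 FPKM in AML12 controls, where Mrpl48 itself stood at 3.32 FPKM, and copies of Mrpl23 and Mrps36 were also listed, so that the split of reads between copies is uncertain in these genes.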

How the data were processed

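The authors deposited FPKM per gene, 1 table per line. Per the submitters' processing notes, Trimmomatic did the trimming and HISAT2 the alignment, with GRCm39 as the genome. Versions, the counting tool and its annotation are not given in the sources used here. Per the labels, RNA came from a mirVana kit and the libraries were of the stranded total RNA kind. Symbols, types and exon lengths came from GENCODE M21 (GRCm38), used for names and lengths only. Promoter windows came from RefSeq (GRCm38.p6) and carry that build's coordinates. FPKM times length and library total gave whole reads, within 0.001, for 89.4% of genes in both lines, and a search over lengths recovered nearly all others, from which the totals come. Floors and totals cover counting error only.

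DEP was compared with DMSO within each line by limma on log2(FPKM + 1) with trended moderation. A gene was tested where 3 or more libraries of the line held 0.5 FPKM or more, and 1152 of 13482 were called in iWAT and 5074 of 12929 in AML12. Benjamini-Hochberg adjustment of the two-sided p-values ran over the whole table. Fold changes on this scale understate those of low genes. The fit of both lines took genes of both tables that reached 0.5 FPKM in any 3 of 12 libraries. The procedure was tested on simulated data. There 1 spread between replicates served for all genes, and the changes put in were 1.25-fold or more, wider than in any called member. The simulation therefore does not show how well changes as small as theirs are found. Members and lists were chosen with earlier results of these data known. The families of cytosolic ribosomal and respiratory chain genes were drawn by symbol afterwards. The NRF1 and YY1 letters are shorter cores that replaced longer forms after the shares with those had been seen. The longer forms were in fewer windows, of members and of other genes alike.

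Named were, per line, up to 8 called rises and 8 called falls, 4 differences between the lines on each side, the 3 highest and 3 lowest controls, a fixed set of members, all subunits with other symbols, and up to 3 called genes of each other list. Other genes in the text, such as Mrpl13, Mrpl17, Mrps21, Mrpl46, Mtrf1l, Fastkd2, Esrra, Fau and the messenger RNAs of mitochondrial DNA, were chosen after their values were seen. Alternatives were other pseudocounts, filters, scalings, thresholds and moderation, a replicate block, voom on recovered reads, subunits by place, leaving out each library and, added after seeing the data, levels per principal transcript and the split of proteins by the letter of their name. Tools were limma 3.58.1 under R 4.3.3, and numpy 2.4.6, pandas 2.3.3 and matplotlib 3.10.9 under Python 3.11.15.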

Additional observations from a re-analysis of the deposited data

Results flagged for a closer look

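In 13 members the difference with DEP itself differed between the lines, by the interaction test in the limma fit of both lines at an adjusted p below 0.05. As the AML12 minus the iWAT log2 fold change, it was positive in Mrpl18 (0.41), Mrpl42 (0.32), Mrpl40 (0.29), Mrpl49 (0.21), Mrps27 (0.21), Mrpl20 (0.19), Mrpl10 (0.16) and Mrpl15 (0.13). It was negative in Mrps18a (-0.27), Mrpl23 (-0.26), Mrps10 (-0.16), Mrpl45 (-0.15) and Mrps16 (-0.12). Mrpl18 and Mrps18a had opposite signs in the lines, with no overlap of the groups in either, but passed only in AML12 (adjusted p in iWAT 0.154 and 0.133). Mrpl15 was called in neither line alone, with 0.06 in AML12 and -0.07 in iWAT, and Mrpl10, Mrpl15 and Mrpl20 were chosen after their values were seen.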

How the results depend on the processing

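Without a filter on low values, 4 AML12 members were called down in place of 7, and 8 differences between the lines in place of 13. All genes called down in that AML12 fit, with more genes tested, numbered 1615 in place of 1982. At an adjusted p below 0.01 there were 8 up and 1 down in AML12, and 3 differences. At that threshold 1861 of all genes rose and 1238 fell in AML12, in place of 3092 and 1982. For differences between the lines, the count over all genes is given at the main setting alone. Centred on library medians, the AML12 median of members was 0.0046 in place of 0.040, and that of all genes was -0.0036 in place of 0.032. Scaled to the same upper quartile, the median of members was 0.0053. With voom 2 iWAT members were called down in place of 0. With subunits by place, large minus small in AML12 was 0.0086 in place of -0.0080.

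Leaving out 1 library at a time gave 10 to 14 members up and 3 to 7 down in AML12, a median of 0.023 to 0.046, and large minus small of -0.039 to 0.027. In iWAT it gave 0 to 1 up (1 without control replicate 1, Mrpl27, and 1 without DEP replicate 3, Mrps15) and 0 down, a median of -0.022 to -0.00055 and large minus small of -0.034 to -0.0075. Differences between the lines numbered 8 to 14. Where a call was lost in this way the test also had fewer libraries. Over all genes these fits gave 2457 to 2740 up and 1624 to 1863 down in AML12, in place of 3092 and 1982. In iWAT they gave 192 to 268 up and 319 to 421 down, in place of 543 and 609.

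The replicate block gave 11 up and 5 down in AML12, 0 in iWAT and 9 differences between the lines. With it 2523 of all genes rose and 1708 fell in AML12, and 190 rose and 313 fell in iWAT. The shared numbers were not found to pair the libraries, since deviations of same-numbered libraries correlated at -0.056 to 0.029.

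No library has separate cultures named, and genes with fewer than 1000 reads in a library, such as Mrps27, Mrps11 and Mrpl18, carry the more counting error. The 95% interval of the difference lay within 1.1-fold either way in 15 members in AML12 and 32 in iWAT.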
